A study of Mus musculus with 11 samples.

Results

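Levels of 10 ion channel genes of the Trp and Piezo families were followed through every library of a sorted-cell RNA-seq study of mouse duodenum: Trpa1, Trpc1, Trpc7, Trpm2, Trpm4, Trpm7, Trpv1, Trpv4, Piezo1 and Piezo2. They are 10 of the 38283 genes in the deposited count table, and they were chosen by name with their counts in these libraries already known. Their levels and differences are therefore a description, and so is every statement that one of them was past a threshold. Tests are given for lists of related genes, which were also chosen with earlier results of these data known. Of the 10 genes, 8 passed the filter on low counts that 14332 genes passed in all, and Trpv1 and Trpv4 did not.

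Epithelium of the duodenum was digested to single cells, and the cells were sorted by a fluorescent reporter in 2 mouse strains. NeuroD1 positive and NeuroD1 negative libraries (3 of each) came from the strain Neurod1-cre-eYFP, so both groups carry the Cre and the reporter. Glu positive (3 libraries) and Glu negative (2 libraries) came from the strain GluVenus, and both carry the Venus transgene. A Cre reporter marks cells that have had the driver active at any time, here that of Neurod1, a transcription factor gene of enteroendocrine cells, the hormone cells of the gut lining. The Venus reporter is driven by proglucagon gene sequence. The mice had standard chow and no treatment is labelled, and age is not given in the labels used here. Library names such as NeuroD1_positive_6360 join the group with the number that the label carries. Nothing in the labels says that these numbers stand for separate animals, so an SE or p-value measures the spread between libraries, which may be technical.

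Trp channels are cation channels that open to chemicals, temperature, lipid messengers or intracellular calcium, and Piezo channels open when the cell membrane is stretched. In the gut, Trpa1 and Piezo2 are known from enterochromaffin cells, the serotonin-making enteroendocrine cells, where irritants or touch acting on them lead to calcium entry and serotonin release. Trpm7 is a channel and kinase made by most cells, while Trpm4 opens to calcium and Trpm2 to ADP-ribose.

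The libraries held 2279595 to 5722381 counts. Levels are CPM, counts relative to a library size scaled by TMM (a factor that balances most genes between libraries), and differences are log2 values from 1 edgeR fit of all 11 libraries, given with their SE. The summed level of 6 endocrine markers was 39541 to 57991 CPM in NeuroD1 positive, 1853 to 2215 CPM in NeuroD1 negative, 8782 to 26123 CPM in Glu positive and 869 to 1055 CPM in Glu negative libraries. The endocrine list holds Neurod1 itself, the gene whose driver defines the NeuroD1 sort. It also holds Chga, which is in the enterochromaffin list below as well. In the NeuroD1 comparison 6 of 6 endocrine markers rose, and 8 of 8 lymphocyte, 6 of 7 enterocyte and 5 of 5 Paneth markers fell. Of 6 goblet markers 5 fell and 1 rose, where 6.57% of all genes rose and 7.61% fell. In the Glu comparison 6 of 6 endocrine markers rose, where 4.22% of all genes did. There 2 of 8 lymphocyte, 4 of 7 enterocyte and 1 of 6 goblet markers fell, where 2.41% of all genes did. No Paneth marker passed and 1 enterocyte marker rose. Enterocyte sums were 4775 to 7423 CPM in Glu positive and 3652 to 4764 CPM in Glu negative libraries. In all 5 Glu libraries and in NeuroD1_negative_6360 the table gives 0 for both mitochondrial ribosomal RNA genes (mt-Rnr1, mt-Rnr2), and for mt-Rnr2 also in the other NeuroD1 negative libraries, so a listed 0 may not mean that no reads were present. In the NeuroD1 positive libraries mt-Rnr2 took 15.5% to 17.9% of the counts, so this listing differs between positive and negative libraries of the NeuroD1 strain as well as between strains. Strain and any batch of the strains cannot be told apart. In bulk RNA, fewer cells of a type and less RNA per cell cannot be told apart either.

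The stretch upstream of the start is shown for 3 of the genes, because each stands for a different pattern in the values below: Trpc1 was higher with the reporter in each strain, Piezo1 was lower in NeuroD1 positive cells, and Trpm7 was near level. Each sequence runs 5′ to 3′ on the strand of the gene (the minus strand for all 3) from 250 to 51 bases before the RefSeq start on GRCm38.p6, at chr9:95750399-95750598 for Trpc1, chr8:122551380-122551579 for Piezo1 and chr2:126876312-126876511 for Trpm7. Capitals mark CANNTG, the E-box letters to which basic helix-loop-helix factors such as the product of Neurod1 bind.
Trpc1: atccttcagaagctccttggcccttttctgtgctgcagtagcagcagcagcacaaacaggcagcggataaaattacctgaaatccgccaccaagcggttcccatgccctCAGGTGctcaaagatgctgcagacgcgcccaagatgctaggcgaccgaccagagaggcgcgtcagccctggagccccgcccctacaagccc
Piezo1: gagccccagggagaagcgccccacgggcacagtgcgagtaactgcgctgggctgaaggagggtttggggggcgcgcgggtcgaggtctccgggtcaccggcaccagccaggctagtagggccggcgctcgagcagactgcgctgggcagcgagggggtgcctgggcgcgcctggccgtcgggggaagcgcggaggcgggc
Trpm7: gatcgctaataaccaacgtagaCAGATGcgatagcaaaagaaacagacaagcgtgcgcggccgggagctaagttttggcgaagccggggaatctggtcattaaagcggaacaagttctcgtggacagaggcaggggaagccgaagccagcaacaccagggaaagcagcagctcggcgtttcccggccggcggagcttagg
The window of Trpc1 holds 1 CANNTG and that of Trpm7 holds 1, and the letters are not in the window of Piezo1. CANNTG, which reads the same way on both strands in its fixed letters, was found in 58.9% of 27025 promoter windows of this length. The more specific CAGATG, which is contained in CANNTG, was found on either strand in 12.0% of them and in the window of Trpm7. A match is a description of letters and not a binding site. RefSeq promoter sequence was found for 7 of the 10 genes. The windows of Trpc7 and Trpm2 are not shown, because that of Trpm2 lies inside the annotated gene and that of Trpc7 lies partly inside it.

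Trpa1, which encodes a channel opened by electrophilic irritants such as mustard oil, had the highest level per length of the 10 genes in NeuroD1 positive cells. The gene lies at chr1:14872648-14918862 on GRCm38. Its level was 387, 251 and 167 CPM in NeuroD1_positive_6360, NeuroD1_positive_6361 and NeuroD1_positive_6362, against 4.23, 2.51 and 4.37 CPM in NeuroD1_negative_6360, NeuroD1_negative_6361 and NeuroD1_negative_6362. In the Glu strain it was 18.8, 16.9 and 7.55 CPM in Glu_positive_5254, Glu_positive_5160 and Glu_positive_4665, and 3.54 and 0.700 CPM in Glu_negative_5254 and Glu_negative_4665. Every positive library was above every negative library in both strains, and every NeuroD1 positive library was above every Glu positive library. Behind these values stand 2499 counts in the NeuroD1 positive group, 39 in NeuroD1 negative, 164 in Glu positive and 21 in Glu negative.

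The fitted difference of Trpa1 between NeuroD1 positive and NeuroD1 negative cells was 6.14 ± 0.59 on the log2 scale, or 70.3-fold. Between Glu positive and Glu negative cells it was 2.82 ± 0.64, or 7.04-fold. The Glu value turned on the negative libraries: it was 1.99 without Glu_negative_4665, when it was no longer past the threshold, and 4.27 without Glu_negative_5254. It also missed the threshold in limma voom and, at 2.75, with the Glu groups fitted alone. The difference between the 2 strains' differences was 3.32 ± 0.82, and it was 1.89 without Glu_negative_5254 and 4.17 without Glu_negative_4665. Leaving out any 1 library kept the NeuroD1 value between 5.78 and 6.39.

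**Figure D1:**
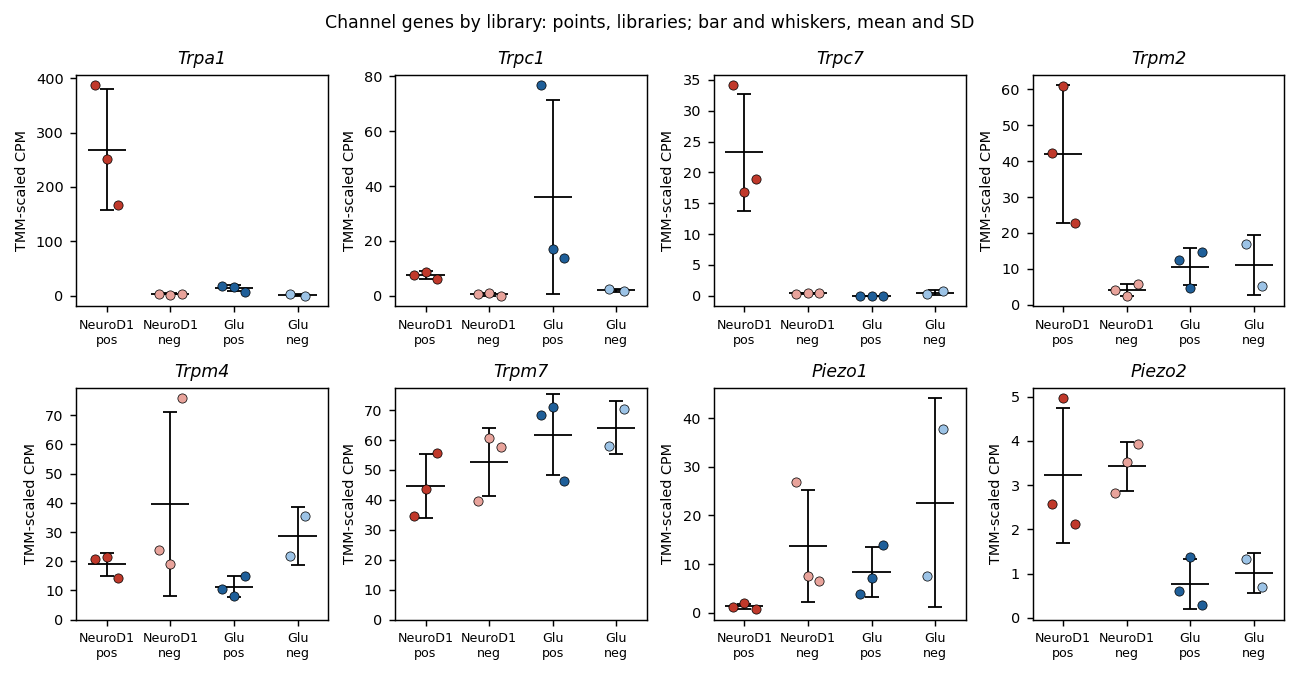
Level of the 8 channel genes that passed the count filter, in each library as TMM-scaled CPM (vertical axes), with 1 panel per gene and the 4 groups along the horizontal axis. Points are libraries, and bars with whiskers are the mean and SD. Trpa1 spans 167 to 387 CPM in NeuroD1 positive libraries and is at 18.8 CPM or below in the other 8.

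Of the Trpa1 and Trpv1 modulators and upstream receptors, a list of 9 genes, 4 passed the count filter and none passed the test in any of the comparisons. The median log2 difference of those 4 was 0.83 in the NeuroD1 comparison, where the median of all genes tested was 0.02, and 1.44 in the Glu comparison, where it was 0.12. F2rl1, which encodes the protease receptor PAR2, was at 67.6, 83.6 and 61.2 CPM in NeuroD1 positive libraries and 56.0, 25.6 and 58.5 CPM in NeuroD1 negative libraries. Its difference of 0.59 ± 0.40 had an adjusted p of 0.391 (edgeR, Benjamini-Hochberg).

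Serotonin genes of enterochromaffin cells, a cell type of the gut in which Trpa1 is known, rose with the reporter in the NeuroD1 strain. All 8 genes of that list passed the test upward, where 6.57% of all genes did, with a median log2 difference of 3.98, against 0.02 over all genes. Tac1, which encodes the precursor of substance P, rose by 5.02 ± 0.69, and Lmx1a, a transcription factor gene of these cells, rose by 4.98 ± 0.52. Their adjusted p-values were 7.17e-05 and 4.98e-06 in edgeR. In the Glu comparison 6 of 8 rose, where 4.22% of all genes did, with a median of 2.52. Fev, a transcription factor gene of serotonin cells, led by 4.19 ± 0.62 (adjusted p = 0.000418 in edgeR). Next came Tph1, the gene of the rate-limiting enzyme of serotonin synthesis in the gut, by 2.94 ± 0.57 (adjusted p = 0.00439 in edgeR). The Tph1 call was lost without Glu_negative_5254, at 2.58 with an adjusted p of 0.102 in edgeR, and with the Glu groups fitted alone, at 2.90. Tac1 and Lmx1a did not pass there, with differences of -1.35 ± 0.72 and -0.90 ± 0.73. Gch1 and Slc18a1, which rose there, both missed the threshold with the Glu groups fitted alone, at 2.80 and 2.01. Slc18a1 also missed it without NeuroD1_positive_6360, Glu_positive_5160 or Glu_positive_4665, with adjusted p-values of 0.0547 to 0.0750 in edgeR. Without Glu_negative_4665 the values were 2.32 for Gch1 and 1.31 for Slc18a1.

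Trpc7, a channel gene whose product responds to diacylglycerol, had counts almost entirely in NeuroD1 positive cells. It lies at chr13:56773113-56895993. Its level was 34.2, 16.8 and 18.9 CPM in NeuroD1_positive_6360, NeuroD1_positive_6361 and NeuroD1_positive_6362, from 93, 44 and 89 counts. NeuroD1 negative libraries held 2, 1 and 1 counts, Glu positive libraries 0, 0 and 0, and Glu_negative_5254 and Glu_negative_4665 held 1 and 6. NeuroD1 positive libraries lay above all others, and Glu positive libraries lay below both Glu negative libraries.

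Over the pooled counts Trpc7 was 55.9-fold higher in NeuroD1 positive than in NeuroD1 negative cells (95% counting interval 21.5 to 207). The fitted difference was 5.71 ± 0.93. Against Glu positive cells it was at least 98.97-fold higher, taking 3 counts over the group as the floor for a count of 0, which is 0.227 CPM. Between Glu positive and Glu negative cells it was at least 2.65-fold lower, a bound that rests on 7 counts in the negative libraries, 6 of them in Glu_negative_4665. Without that library there is no bound, since the 1 count left is under the floor of 3. Intervals and floors cover counting error only, since amplified reads are not independent molecules.

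Trpc1, whose product forms channels with other Trpc proteins, was higher in positive than in negative cells of either strain and highest in Glu positive cells. The gene lies at chr9:95705082-95750375. In the NeuroD1 strain its level was 7.71, 8.77 and 6.15 CPM in NeuroD1_positive_6360, NeuroD1_positive_6361 and NeuroD1_positive_6362, and 0.529, 1.00 and 0 CPM in the negative libraries of the same numbers. Glu_positive_5254, Glu_positive_5160 and Glu_positive_4665 stood at 76.8, 17.2 and 13.8 CPM, and Glu_negative_5254 and Glu_negative_4665 at 2.43 and 1.68 CPM. The positive and negative libraries did not overlap in either strain, and each Glu positive library was above each NeuroD1 positive library.

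The fitted difference of Trpc1 was 3.83 ± 0.91 in the NeuroD1 strain and 4.12 ± 0.93 in the Glu strain. In limma voom the first was 3.75 and missed the threshold. The second fell short of the threshold when any 1 of 3 libraries was left out, at 2.91 without Glu_positive_5254, 4.36 without Glu_negative_5254 and 3.84 without Glu_negative_4665. Glu_positive_5254, the library with the highest Trpc1 level, also had the highest sum of 8 lymphocyte markers, 1972 CPM, against 346 and 328 CPM in Glu_positive_5160 and Glu_positive_4665. Lymphocyte markers summed to 973 and 1161 CPM in Glu_negative_5254 and Glu_negative_4665, where Trpc1 was at 2.43 and 1.68 CPM. Glu_positive_5254 was also highest of its group in stromal (322 CPM), goblet (2883 CPM), crypt stem (401 CPM) and endothelial (30.3 CPM) markers. The same held for enterocyte markers and for those of enteric neurons and glia. It did not hold for endocrine, macrophage and mast cell, tuft or Paneth markers. The part of these cell types in the Trpc1 level was not tested.

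Among the other Trpc genes, Trpc4 and Trpc5 were higher with the reporter in the NeuroD1 strain. Trpc5 was at 41.1, 29.0 and 57.0 CPM in NeuroD1_positive_6360, NeuroD1_positive_6361 and NeuroD1_positive_6362 and at 0.437 to 1.51 CPM in the negative ones. Trpc4, whose product forms channels close in kind to those of Trpc5, was at 21.7, 14.5 and 11.4 CPM against 1.06 to 2.01 CPM. Both rose, Trpc5 by 5.61 ± 1.05 (adjusted p = 0.00129 in edgeR) and Trpc4 by 3.46 ± 0.82 (adjusted p = 0.00756 in edgeR). No gene of this list fell in the NeuroD1 comparison.

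In the Glu strain Trpc5 was at 0.607, 0.344 and 11.4 CPM in Glu_positive_5254, Glu_positive_5160 and Glu_positive_4665, so a single library held nearly all of its level there, and its difference of 3.95 ± 1.25 had an adjusted p of 0.0646 in edgeR.

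Among the Trpm genes, Trpm2 stood out in NeuroD1 positive cells. Its product is a calcium-permeable channel opened by ADP-ribose and oxidative stress, and the gene lies at chr10:77907722-77970563. Its level was 42.2, 61.0 and 22.7 CPM in NeuroD1_positive_6360, NeuroD1_positive_6361 and NeuroD1_positive_6362, and 4.23, 2.51 and 5.68 CPM in the NeuroD1 negative libraries of the same numbers. Glu_positive_5254, Glu_positive_5160 and Glu_positive_4665 were at 12.4, 4.82 and 14.7 CPM, and Glu_negative_5254 and Glu_negative_4665 at 17.0 and 5.18 CPM. The NeuroD1 positive libraries were above all other libraries, while the Glu positive and Glu negative libraries overlapped.

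The fitted difference of Trpm2 was 3.32 ± 0.67 in the NeuroD1 strain, or 9.99-fold. In the Glu strain it was -0.04 ± 0.68, and it changed sign with single libraries, from -0.64 without Glu_negative_4665 to 1.07 without Glu_negative_5254. The lymphocyte markers summed to 8.81 to 59.3 CPM in NeuroD1 positive and 299 to 564 CPM in NeuroD1 negative libraries, and their part in the Trpm2 level was not tested.

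Trpm4 encodes a channel that calcium opens and that carries sodium rather than calcium. The gene lies at chr7:45302632-45333780. It was at 20.9, 21.4 and 14.4 CPM in NeuroD1_positive_6360, NeuroD1_positive_6361 and NeuroD1_positive_6362 and at 23.97, 19.1 and 76.0 CPM in the NeuroD1 negative libraries. Glu_positive_5254, Glu_positive_5160 and Glu_positive_4665 were at 10.6, 8.27 and 15.1 CPM, below Glu_negative_5254 and Glu_negative_4665 at 21.7 and 35.6 CPM. The groups of the Glu strain did not overlap, and those of the NeuroD1 strain did, with NeuroD1_negative_6362 far above its group.

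For Trpm4 the fitted differences were -1.07 ± 0.55 and -1.33 ± 0.60, neither past the threshold. Without NeuroD1_negative_6362 the first was -0.19. Enterocyte markers also had their highest sum in NeuroD1_negative_6362, 17665 CPM, against 5843 and 9330 CPM in the other 2. The Glu strain went the other way. Enterocyte sums there were 4775 to 7423 CPM in Glu positive libraries, where Trpm4 was lower. In Glu_negative_5254 and Glu_negative_4665, where Trpm4 was higher, they were 4764 and 3652 CPM. The part of enterocytes in the Trpm4 level was not tested.

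Trpm7 encodes a magnesium-permeable channel fused to a kinase. It lies at chr2:126791565-126876230 and was at similar levels in the 4 groups. NeuroD1_positive_6360, NeuroD1_positive_6361 and NeuroD1_positive_6362 were at 34.5, 43.5 and 55.7 CPM, and NeuroD1 negative libraries at 39.7, 60.7 and 57.6 CPM. Glu_positive_5254, Glu_positive_5160 and Glu_positive_4665 were at 68.3, 71.0 and 46.3 CPM, and Glu_negative_5254 and Glu_negative_4665 at 57.9 and 70.5 CPM. The groups overlapped within each strain.

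Its differences were -0.23 ± 0.37 in the NeuroD1 strain (95% interval -0.96 to 0.49) and -0.06 ± 0.41 in the Glu strain (-0.86 to 0.75). These intervals take the SE with a normal quantile and are narrower than the F test of edgeR would give. The lower end in the NeuroD1 strain lies close to a 2-fold difference, so such a difference is not excluded there. Genes of magnesium transport, a list of 11, were likewise near the median of all genes, at 0.09 in the NeuroD1 comparison and 0.20 in the Glu comparison. Of these 11, none rose and 1 fell in the NeuroD1 comparison, and none passed in the Glu comparison. The 1 was Cnnm4, which encodes a magnesium transporter of the basolateral membrane, by -1.25 ± 0.32 (adjusted p = 0.0128 in edgeR). Without NeuroD1_positive_6360, NeuroD1_positive_6361 or NeuroD1_negative_6360 that call was lost, with adjusted p-values of 0.0522 to 0.0721 in edgeR.

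**Figure D2:**
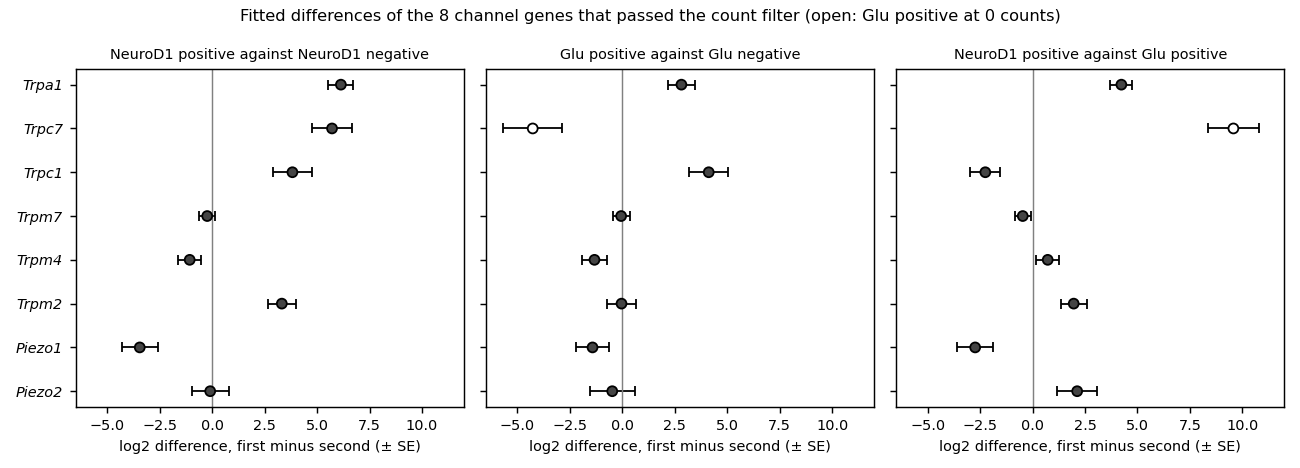
Fitted log2 differences (horizontal axis) with their SE (whiskers) for the 8 channel genes that passed the count filter, in the 2 positive against negative comparisons and between the positive populations. Trpm7 lies near 0 in all 3, Trpa1 lies above 0 in all 3, and open symbols mark Trpc7 values that rest on 0 counts in Glu positive libraries.

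Of the other Trpm genes, 2 of 5 were tested, with a median of -3.02 in the NeuroD1 and -1.46 in the Glu comparison. Trpm5, the taste and tuft cell channel that calcium opens, was the 1 that passed the test in either positive against negative comparison. It stood at 0.367, 1.14 and 2.12 CPM in NeuroD1 positive libraries against 13.6, 11.5 and 20.5 CPM in NeuroD1 negative ones, and fell by 3.55 ± 0.74 (adjusted p = 0.00309 in edgeR). In the Glu strain it was at 1.52, 2.41 and 1.14 CPM against 18.8 and 19.9 CPM and fell by 3.53 ± 0.76 (adjusted p = 0.00904 in edgeR). The Glu call was lost without Glu_negative_4665, at -3.49 with an adjusted p of 0.0712 in edgeR. Tuft cell markers, a list that holds Trpm5 itself, summed to 9.55 to 52.6 CPM in NeuroD1 positive, 84.3 to 105 CPM in NeuroD1 negative, 16.4 to 81.0 CPM in Glu positive and 97.7 to 144 CPM in Glu negative libraries, with Il25 at 0 throughout. Trpm6, the epithelial magnesium channel related to Trpm7, was at 0.382 to 0.734 CPM in NeuroD1 positive libraries and 1.23 to 5.52 CPM in NeuroD1 negative libraries, and its difference of -2.49 ± 0.97 had an adjusted p of 0.101 in edgeR.

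Among the 7 genes of ADP-ribose metabolism and the Trpm4 partner, all tested, 2 rose and 2 fell in the NeuroD1 comparison, with a median of -0.11. Abcc8, which encodes the sulfonylurea receptor that associates with Trpm4 and with potassium channels, rose by 3.61 ± 0.37 (adjusted p = 3.51e-06 in edgeR), from 11.1 to 19.1 CPM in NeuroD1 negative to 135 to 224 CPM in NeuroD1 positive libraries. It rose in the Glu comparison too, by 3.18 ± 0.42 (adjusted p = 0.000155 in edgeR). Bst1, a gene of an ADP-ribose-forming enzyme, fell by 3.89 ± 1.04 (adjusted p = 0.0167 in edgeR), and Cd38, its relative, fell by 1.92 ± 0.52 (adjusted p = 0.0171 in edgeR). The Bst1 call was lost without NeuroD1_positive_6360, NeuroD1_positive_6361 or NeuroD1_negative_6362, with adjusted p-values of 0.0669 to 0.125 in edgeR. That of Cd38 was lost without NeuroD1_positive_6361, NeuroD1_positive_6362 or NeuroD1_negative_6362, with adjusted p-values of 0.0515 to 0.0894 in edgeR. In the same comparison 8 of 8 lymphocyte markers fell, and their part in the Bst1 and Cd38 levels was not tested. In the Glu comparison 1 gene rose and 1 fell, with a median of -0.36.

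Trpv1, the gene of the capsaicin and heat channel (chr11:73234292-73261242), was listed at 0 in all 11 libraries. The floor used for a listed 0, which is 3 counts over all libraries, would be 0.0668 CPM. Trpv4, the gene of an osmotic and warmth channel (chr5:114622152-114658421), had 4 counts in all, 2 in Glu_positive_5254 and 2 in Glu_negative_4665. At this depth no difference between groups was detectable for either gene. Markers of enteric neurons and glia, cells in which Trpv1 is known, summed to 0.663 to 13.6 CPM over the 11 libraries, with Sox10 at 0 in all of them. Trpv2, the only other Trpv gene with enough counts, was at 0.848 to 2.94 CPM in NeuroD1 positive and 2.11 to 15.6 CPM in NeuroD1 negative libraries, and its difference of -2.05 ± 0.93 had an adjusted p of 0.162 in edgeR. Of the mucolipins and polycystins, intracellular and ciliary relatives, 5 of 7 genes were tested and none passed in any comparison, with a median of 0.35 in the NeuroD1 comparison.

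Piezo1, the gene of the more widely made of the Piezo channels, was low in NeuroD1 positive cells. It lies at chr8:122481698-122551329. NeuroD1_positive_6360, NeuroD1_positive_6361 and NeuroD1_positive_6362 held 3, 5 and 4 counts (1.10, 1.91 and 0.848 CPM). NeuroD1_negative_6360, NeuroD1_negative_6361 and NeuroD1_negative_6362 were at 26.97, 7.53 and 6.55 CPM. Glu_positive_5254, Glu_positive_5160 and Glu_positive_4665 were at 3.94, 7.23 and 14.0 CPM, and Glu_negative_5254 and Glu_negative_4665 at 7.52 and 37.8 CPM. Every NeuroD1 positive library was below every other library, and the Glu groups overlapped.

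The fitted difference of Piezo1 was -3.45 ± 0.87 in the NeuroD1 strain, or 10.9-fold lower, and -1.42 ± 0.81 in the Glu strain. The first missed the threshold without NeuroD1_negative_6360, at -2.46, without NeuroD1_positive_6362, at -3.19, and in limma voom, at -3.31. The second was 0.21 without Glu_negative_4665, so its sign rested on that library. Piezo1 shares 2441 exon bases (24.6% of its exons) with Ctu2 on the opposite strand, and whether the counting used strand is not given in the sources used here. Ctu2 held 130 counts in all, 39 of them in NeuroD1_positive_6362 and at most 16 in any other library.

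Endothelial and stromal cells also make Piezo1, and 1 of 5 endothelial and 4 of 7 stromal markers fell in the NeuroD1 comparison. In it 8 of 8 lymphocyte markers fell too, against 7.61% of all genes. Endothelial markers (5 genes) summed to 5.72 to 24.8 CPM in NeuroD1 positive and 17.9 to 77.7 CPM in NeuroD1 negative libraries, with the highest value in NeuroD1_negative_6360, the library highest in Piezo1 of its group. Stromal markers (7 genes) summed to 27.5 to 83.5 CPM and 184 to 373 CPM in the same groups, again highest in NeuroD1_negative_6360. In Glu negative libraries the order was not the same, as Glu_negative_4665, at 37.8 CPM of Piezo1, had lower endothelial and stromal sums (45.0 and 334 CPM) than Glu_negative_5254 (52.6 and 456 CPM). Lymphocyte markers (8 genes) were highest of their group in NeuroD1_negative_6360 (564 CPM) and higher in Glu_negative_4665 (1161 CPM) than in Glu_negative_5254 (973 CPM). Glu_positive_5254 went the other way, with the highest lymphocyte sum of all libraries, 1972 CPM, and the lowest Piezo1 of its group, 3.94 CPM. The part of these cell types in the level of Piezo1 was not tested.

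**Figure D3:**
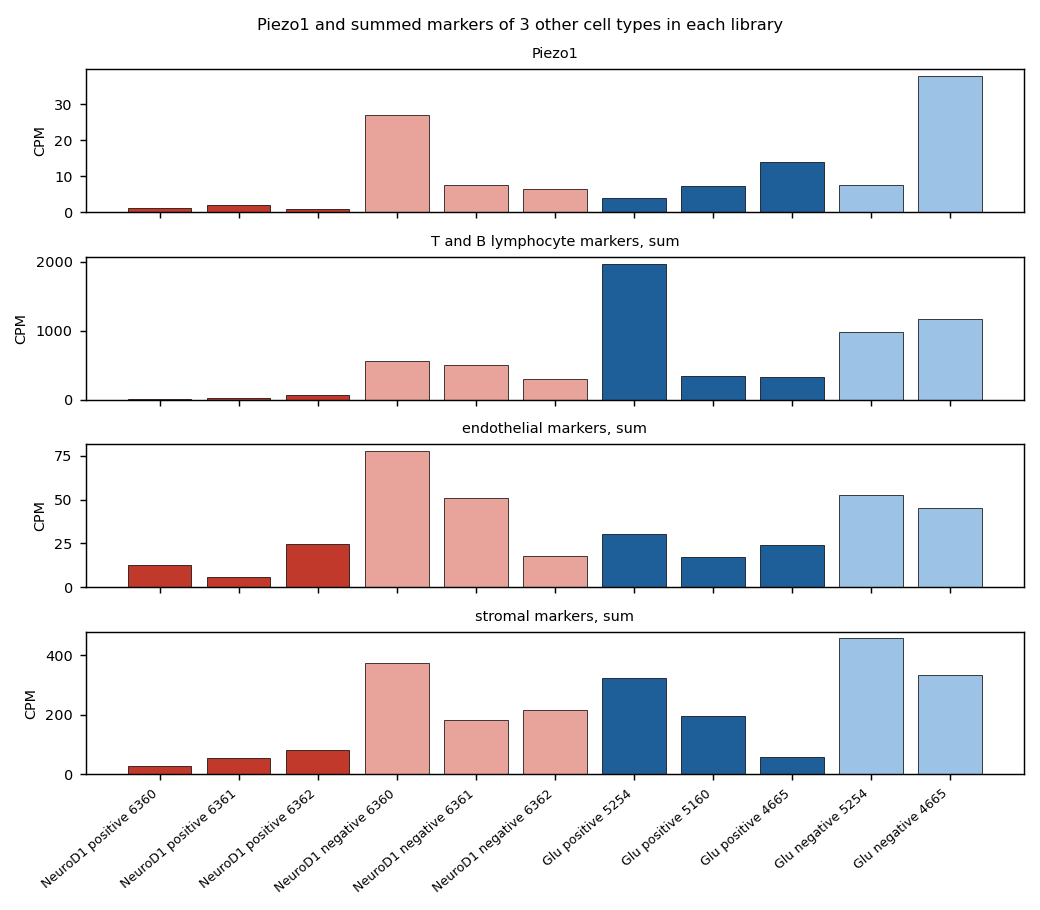
Level of Piezo1 (top panel) and summed level of lymphocyte, endothelial and stromal markers (lower panels) as bars of TMM-scaled CPM, with 1 bar for each of the 11 libraries. The 3 NeuroD1 positive libraries lie at 1.91 CPM of Piezo1 or below, and Glu_negative_4665 is highest at 37.8 CPM.

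Piezo2, the touch channel gene, lay at a low level in all groups. NeuroD1_positive_6360, NeuroD1_positive_6361 and NeuroD1_positive_6362 held 7, 13 and 10 counts (2.57, 4.96 and 2.12 CPM), and NeuroD1 negative libraries 16, 7 and 9 counts (2.82, 3.51 and 3.93 CPM). Glu positive libraries held 2, 4 and 2 counts, at 0.607, 1.38 and 0.285 CPM, and Glu negative libraries 6 and 5 counts, at 1.33 and 0.700 CPM. Positive and negative libraries overlapped in both strains, and all 6 NeuroD1 libraries were above all 5 Glu libraries. The gene lies at chr18:63010213-63387183.

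The fitted difference of Piezo2 was -0.09 ± 0.89 in the NeuroD1 strain, with a 95% interval of -1.83 to 1.65, and -0.48 ± 1.06 in the Glu strain, with an interval of -2.56 to 1.60. The 4 groups held 30, 32, 8 and 11 counts of Piezo2, and both intervals span differences of more than 2-fold in either direction.

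Other mechanosensitive channels and Piezo regulators, 10 tested of 17, had 1 gene up and 1 down in the NeuroD1 comparison, and a median of 0.93. Kcnk2, the gene of the stretch-gated potassium channel TREK-1, rose by 4.17 ± 1.10 (adjusted p = 0.0147 in edgeR), from 0.529 to 1.51 CPM in NeuroD1 negative libraries to 5.51, 38.2 and 14.0 CPM in NeuroD1 positive ones. The call was lost without NeuroD1_positive_6361, NeuroD1_negative_6360 or NeuroD1_negative_6362, at values of 3.20 to 4.35 and adjusted p-values of 0.0505 to 0.0970 in edgeR. Stom, which encodes the membrane protein stomatin, fell by 2.83 ± 0.53 (adjusted p = 0.00125 in edgeR) in the NeuroD1 strain and by 2.52 ± 0.53 (adjusted p = 0.00782 in edgeR) in the Glu strain, where it was the 1 gene of the list that passed. The Glu call for Stom was lost without Glu_negative_5254, at -2.27 with an adjusted p of 0.109 in edgeR, and with the Glu groups fitted alone, at -2.56. Tmem63a, an osmosensitive channel gene with the highest average level over all libraries among the genes of the list that did not pass, was at 77.8 to 79.7 CPM in NeuroD1 positive and 38.0 to 49.9 CPM in NeuroD1 negative libraries, and its difference of 0.77 ± 0.34 had an adjusted p of 0.143 in edgeR.

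Per length of exon, the order of the 10 genes differed between the groups. The length is that of all annotated exons of a gene merged over its transcripts, such as 10826 bases for Trpm4 and 11315 for Trpm7. It can exceed the length of the transcript made, so the order and the shares within a group depend on the annotation. In NeuroD1 positive cells Trpa1 led with 62.9 ± 26.1 CPM per kilobase (SD, n = 3), and its lowest library was above the highest of the next gene. Trpc7 (5.998 ± 2.45), Trpm7 (3.94 ± 0.941), Trpm2 (3.37 ± 1.54) and Trpm4 (1.75 ± 0.360) followed, each with a range that overlapped the next. Trpc1, at 0.940 ± 0.165 CPM per kilobase, was apart from both its neighbours, and Piezo2 and Piezo1 closed the order at 0.187 ± 0.0889 and 0.129 ± 0.0557. Trpa1 thus made up 73.8% to 83.1% of the per-length sum of the 10 genes in the NeuroD1 positive libraries.

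In the other groups Trpm7 led, at 4.66 ± 1.01 CPM per kilobase in NeuroD1 negative (n = 3), 5.47 ± 1.20 in Glu positive (n = 3) and 5.67 ± 0.782 in Glu negative cells (n = 2). In NeuroD1 negative cells Trpm4 (3.66 ± 2.91) and Piezo1 (1.38 ± 1.16) came next, and in Glu negative cells the same genes followed at 2.64 ± 0.908 and 2.28 ± 2.16, with ranges that overlapped each other. Glu positive cells had Trpc1 (4.47 ± 4.41) and Trpa1 (3.38 ± 1.41) after Trpm7, with overlapping ranges, and then Trpm4 (1.05 ± 0.320), Trpm2 (0.854 ± 0.414) and Piezo1 (0.843 ± 0.514), whose ranges overlapped too. Of these 3 groups, Glu negative was the one in which all libraries of the leading gene lay above those of the next.

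**Figure D4:**
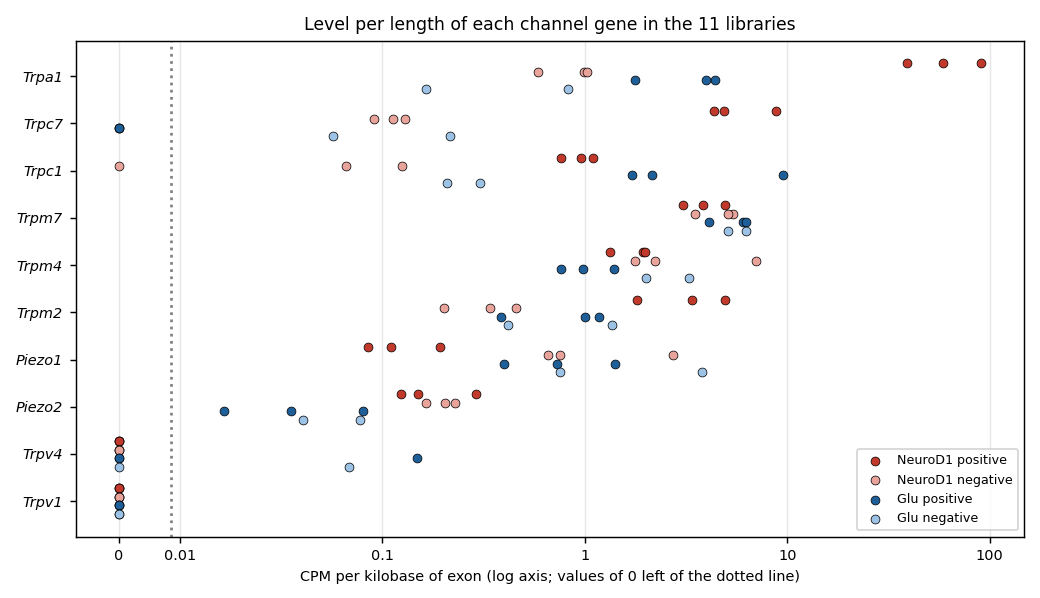
Level of the 10 channel genes (vertical axis) in the 11 libraries (points, coloured by group) as CPM per kilobase of exon on a log axis, with values of 0 drawn left of the dotted line. Trpa1 in NeuroD1 positive libraries lies to the right of all other points, around its mean of 62.9 CPM per kilobase.

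Counted against the fit of all genes, 4 of the 8 channel genes in that fit (Trpa1, Trpc1, Trpc7 and Trpm2) were past the threshold of an adjusted p under 0.05 upward in the NeuroD1 comparison, where 6.57% of all genes were, and 1 (Piezo1) downward, where 7.61% were. The same 5 were the ones whose groups did not overlap, as were 18.3% of all genes upward and 17.2% downward. In the Glu comparison 2 (Trpa1 and Trpc1) were past the threshold upward, against 4.22% of all genes. Trpc7 and Trpm4 had Glu positive libraries below the negative ones with no overlap, as had 16.5% of all genes, and Trpa1 and Trpc1 had them above, as had 15.8%. For Trpc7 the lack of overlap rests on 0 counts in each Glu positive library against 1 in Glu_negative_5254 and 6 in Glu_negative_4665. The median log2 difference of the 8 was 1.61 in the NeuroD1 comparison and -0.27 in the Glu comparison, with 0.02 and 0.12 over all genes. Since the genes were chosen with these values known, nothing is read from the counts.

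Between the positive populations, Trpa1 and Trpc7 were past the threshold as higher in NeuroD1 positive than in Glu positive cells, by 4.23 ± 0.53 for Trpa1, where 3.18% of all genes were past it upward and 4.95% downward. Trpm2 and Piezo2 were higher in every NeuroD1 positive library as well, by 1.96 ± 0.62 and 2.13 ± 0.97, and 11.4% of all genes were so without overlap. Trpc1 and Piezo1 were lower in every NeuroD1 positive library, by -2.25 ± 0.72 and -2.73 ± 0.85, as were 12.2% of all genes. The Trpc1 value was -1.04 without Glu_positive_5254, and that of Piezo1 was -2.13 without Glu_positive_4665. Trpm4 and Trpm7 overlapped, at 0.72 ± 0.56 and -0.47 ± 0.37. The reporter, the strain and the mitochondrial RNA listing all differ between these groups and cannot be told apart.

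Between the negative populations none of the 8 was past the threshold in edgeR, and none had an unadjusted p under 0.05, where 0.363% of all genes were past it upward, 0.126% downward and 0.488% in either direction. Piezo2 was higher and Trpc1 lower in every NeuroD1 negative library, by 1.74 ± 1.06 and -1.96 ± 0.99, and 15.3% and 16.5% of all genes were so without overlap. DESeq2 and limma voom also put 0 of the 8 past it. For the difference between the strains' positive against negative differences, 1 of the 8 (Trpc7) was past the threshold upward, where 0.0907% of all genes were upward, 0.0209% downward and 0.112% in either direction. Trpc7 was no longer past it in limma voom, at 7.49, or without NeuroD1_positive_6360, NeuroD1_negative_6360, NeuroD1_negative_6362 or Glu_negative_4665, at 8.64 to 10.07.

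Of the related genes, Trpc4 and Trpc5 were higher in NeuroD1 positive than in Glu positive cells, by 4.29 ± 0.85 (adjusted p = 0.00438 in edgeR) and 3.26 ± 0.88 (adjusted p = 0.0269 in edgeR). The Trpc5 value was 6.37 without Glu_positive_4665. It lost the call without any 1 of the NeuroD1 positive libraries, Glu_positive_5254 or Glu_positive_5160, with adjusted p-values of 0.0563 to 0.0981 in edgeR. Trpm6 was lower, by -3.32 ± 0.97 (adjusted p = 0.0401 in edgeR), a call lost when any 1 of 9 libraries was left out, all but NeuroD1_negative_6360 and Glu_positive_4665, with adjusted p-values of 0.0505 to 0.134 in edgeR. Mdfic, which encodes a Piezo-binding protein, was lower by -4.39 ± 0.95 (adjusted p = 0.00816 in edgeR), and its adjusted p was 0.05003 in edgeR and just missed the threshold without NeuroD1_positive_6362. Asic2, an acid-sensing channel gene, was higher by 3.54 ± 1.06 (adjusted p = 0.0466 in edgeR), and lost the call whichever library was left out, with adjusted p-values of 0.0518 to 0.0998 in edgeR. In the enterochromaffin list 5 of 8 genes were higher and none lower, where 3.18% of all genes were higher. Tph1 and Chga, which are among these 5, also passed as higher in NeuroD1 negative than in Glu negative cells. There 0.363% of all genes were higher, so for Tph1 and Chga the strain difference was not confined to the positive cells. The 5 were led by Lmx1a at 8.001 ± 0.63 and Tac1 at 6.50 ± 0.75. Lmx1a had a mean of only 0.460 CPM in Glu positive libraries, so the size of its value rests on few counts there. With the 2 positive groups fitted alone, the calls of Trpc5, Trpm6 and Asic2 were also lost, at 3.30, -3.34 and 3.54, and that of Trpm6 was lost in limma voom, at -2.73.

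Phospholipase C and calcium store genes, which act upstream of Trpc channels, changed in both directions. In the NeuroD1 comparison 1 of the 8 Gq and phospholipase C genes rose and 4 fell, with a median of -0.98. Plcb4 rose by 3.08 ± 0.45 (adjusted p = 0.000127 in edgeR), from 9.87 to 23.1 CPM in NeuroD1 negative to 107 to 154 CPM in NeuroD1 positive libraries. Plcb2, the phospholipase of taste and tuft cells, fell by 4.42 ± 0.77 (adjusted p = 0.000624 in edgeR), and Plcg2, known from tuft cells and leukocytes, fell by 3.16 ± 0.60 (adjusted p = 0.00134 in edgeR). In the Glu comparison 1 gene of this list rose, Plcb4 by 2.40 ± 0.50 (adjusted p = 0.00744 in edgeR), and none fell, with a median of -0.76, a list whose median lay below 0 while its only call was upward. That call was lost without Glu_negative_5254 or Glu_negative_4665, with adjusted p-values of 0.0864 and 0.122 in edgeR.

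Of the 11 tested genes of store-operated calcium entry, 2 rose and 2 fell in the NeuroD1 comparison, with a median of 0.92. Itpr2, an IP3 receptor gene, fell by 2.36 ± 0.50 (adjusted p = 0.00322 in edgeR), from 58.0 to 69.3 CPM in NeuroD1 negative to 5.88 to 20.3 CPM in NeuroD1 positive libraries. Cav1, the caveolin gene of endothelial and stromal cells, fell by 3.37 ± 1.02 (adjusted p = 0.0329 in edgeR), and the call was lost without NeuroD1_positive_6360 or NeuroD1_positive_6361 or NeuroD1_negative_6360 or NeuroD1_negative_6361, with adjusted p-values of 0.0932 to 0.116 in edgeR, and in limma voom, at -3.04 with an adjusted p of 0.142. Another IP3 receptor gene, Itpr3, rose by 1.38 ± 0.39 (adjusted p = 0.0206 in edgeR), and lost the call without any 1 of the NeuroD1 libraries other than NeuroD1_positive_6360, with adjusted p-values of 0.0546 to 0.106 in edgeR. In the Glu comparison Homer2, a scaffold gene of these receptors, rose by 2.09 ± 0.51 (adjusted p = 0.0200 in edgeR). Without Glu_negative_4665 its value was 1.56 with an adjusted p of 0.283 in edgeR. Without scaling of the library sizes Itpr3 and Homer2 both missed the threshold, at 1.12 and 1.83, and Homer2 did so with the Glu groups fitted alone, at 2.04.

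**Figure D5:**
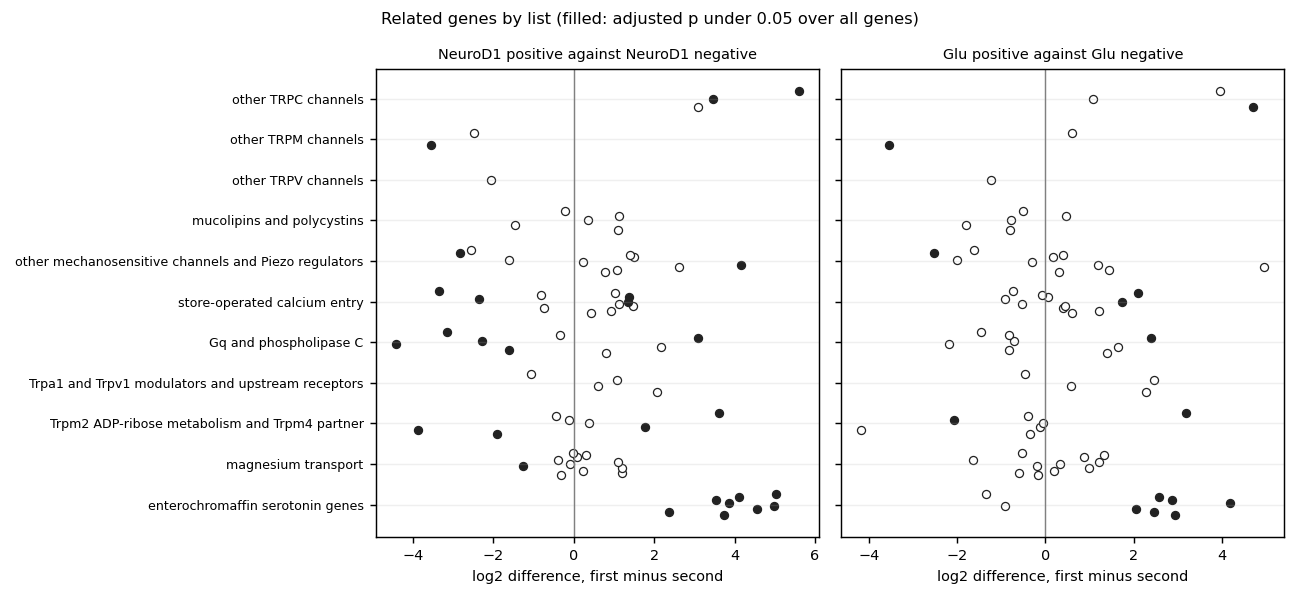
Fitted log2 differences of the related genes that passed the count filter, by list (vertical axis), in the NeuroD1 and the Glu comparison (1 panel each). Filled points passed an adjusted p under 0.05 in edgeR. All 8 enterochromaffin genes are filled and above 0 in the NeuroD1 panel, and Trpc4 and Trpc5 lie at 3.46 and 5.61 there.

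In all, 70 of the 93 related genes were tested, of which 16 rose and 11 fell in the NeuroD1 comparison, 11 rose and 3 fell in the Glu comparison, and 10 were higher and 5 lower in NeuroD1 positive than in Glu positive cells. Over all genes tested 14.2%, 6.64% and 8.13% passed in these comparisons. The median of the 70 was 0.68, 0.19 and -0.08, against 0.02, 0.12 and -0.14 over all genes. These 3 comparisons share libraries, so their values are not independent of each other.

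The genes whose levels followed each channel gene most closely over the 11 libraries were picked by Pearson r of log2(CPM + 1) among 11197 genes (11198 for Piezo2), as a description. The libraries share their group, strain and sort, so a gene that is high in the same group is close by that alone. For Trpa1 they were Amigo2 (r = 0.97), Clcn5 (0.96) and Zfp703 (0.96). For Trpc7 they were Tpbg (0.99), mt-Rnr2 (0.98) and Th (0.97), and mt-Rnr2 is a gene listed at 0 in every library outside the NeuroD1 positive group. For Trpc1 they were Maml3 (0.98), Epc2 (0.97) and Tmem30a (0.97). Piezo1 was closest to Plcg2 (0.94), Vars (0.93) and Pidd1 (0.93), and its likeness to Zap70, a T cell kinase gene, was 0.91. For Piezo2 Muc6 (0.91), Slc13a1 (0.91) and Foxq1 (0.90) came first, and for Trpm2 Slc16a11 (0.91). The value was lower for Trpm7, with Acad10 (0.89).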

How the data were processed

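Sorted duodenal cells were profiled by RNA-seq after amplification, per the labels' protocols. Among the tools in the submitters' processing notes are TopHat2 2.1.0 and Cufflinks 2.2.1, with CASAVA, and the genome build there is GRCm38. Which program counted, with which annotation and with or without strand, is not given in the sources used here. In the deposited table stood the authors' estimated counts per gene and library (expected counts), which were not whole for 848 of 38283 genes and for none of the 10 channel genes. They were rounded to whole numbers, a change of at most 0.5. Positions come from GENCODE vM21 and upstream sequences from RefSeq.

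For the tests, filterByExpr, TMM scaling and the quasi-likelihood F test of edgeR 4.0.16 (R 4.3.3) were applied to a model with a mean for each of the 4 groups, fitted to the 11 libraries together. P-values were adjusted by Benjamini-Hochberg over the 14332 genes tested, with a threshold of 0.05, and the 2 strains' comparisons, both comparisons between strains and the difference of differences were fitted. CPM were computed with the TMM library sizes. The 95% intervals of fitted differences take the SE with a normal quantile and not the F distribution of the test. Simulated counts with known changes were used to test the fit. Pairs of replicates had chi-squares of 15.3 to 135 times their degrees of freedom, well over sampling noise, and all libraries were kept as separate. The highest values, 127 and 135, belong to the pairs with NeuroD1_negative_6360. They include mt-Rnr1, listed at 0 there and at 33.0% and 33.9% of the counts in NeuroD1_negative_6361 and NeuroD1_negative_6362. Such an excess does not show that libraries come from separate animals.

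The channel genes and the gene lists were chosen with earlier results of these data known. The text names all 10 channel genes, from each related list up to 3 genes that passed by size of difference and up to 1 that did not, and the closest genes by correlation (at most 5 for each channel gene, of mean log2 CPM of at least 2). Fewer were used in that order. A few genes taken by the rule are not reported here, though they are still part of every count. Alternatives were other scalings, filters, DESeq2 1.42.0, limma 3.58.1 voom, the compared groups alone, a replicate block, no mitochondrial ribosomal genes and each library left out.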

Additional observations from a re-analysis of the deposited data

Results flagged for a closer look

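The positive against negative difference was larger in the NeuroD1 strain than in the Glu strain for 2 of the related genes named, Lmx1a and Tac1, by the test of the difference of differences in edgeR. For Lmx1a this difference of differences was 5.88 ± 0.89 on the log2 scale (adjusted p = 0.0066 in edgeR), and for Tac1 it was 6.37 ± 0.97 (adjusted p = 0.0066 in edgeR). Mean levels in Glu positive and Glu negative libraries were 0.460 and 0.903 CPM for Lmx1a and 2.89 and 7.10 CPM for Tac1. The size of the Lmx1a value thus rests on few counts in the Glu strain. For Trpc7 the difference of differences was 9.98 ± 1.67, a fitted value that rests on 0 counts in the Glu positive libraries and is no bound. It is given as a description because the gene was chosen with its counts known. Of Lmx1a and Tac1, 1 passed without Glu_negative_5254, 1 with the replicate block, and 0 passed without Glu_negative_4665 or in limma voom. Over all genes tested 0.112% passed in this comparison. The Trpc7 value missed the threshold with the replicate block, at 10.15, in limma voom, at 7.49, and without NeuroD1_positive_6360, NeuroD1_negative_6360, NeuroD1_negative_6362 or Glu_negative_4665, at 9.64, 9.75, 10.07 and 8.64. Groups of 2 or 3 libraries are too small for a search for single outlying samples.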

How the results depend on the processing

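The number of channel genes past the threshold in the NeuroD1 comparison was 5, and 3 in limma voom, with 4 to 5 when 1 library was left out. In the Glu comparison it was 2, and 1 in limma voom and with the compared groups alone, with 0 (without Glu_negative_4665) to 2 under left-out libraries. Between the positive populations it was 2, and 4 with library totals, 5 without a filter and 5 in DESeq2, with 2 to 4 (without Glu_positive_4665) under left-out libraries, and between the negative populations 0, with 0 to 0. For the difference of differences it was 1, and 3 without a filter, 3 in DESeq2 and 0 in limma voom, with 0 to 1 under left-out libraries. Among related genes the NeuroD1 comparison had 27 calls, with 21 to 29 under left-out libraries. The Glu comparison had 14, and 6 with the compared groups alone, with 5 (without Glu_negative_4665) to 15, and 7 without Glu_negative_5254. Between the positive populations there were 15, with 8 (without NeuroD1_positive_6362) to 19, between the negative ones 2, with 0 (without Glu_negative_5254) to 3, and for the difference of differences 2, with 0 in limma voom and 0 to 2 under left-out libraries. Fewer samples in a fit leave less power, and other causes were not tested. Of 811 values of the channel genes under the alternatives 26 changed sign, 0 of them for a value past the threshold, and 16 of 207 past it fell short. Scaling by library totals shifted the median log2 difference over all genes to -0.28 (NeuroD1, main 0.02), to -0.19 (Glu, main 0.12) and to -0.51 (positive populations, main -0.14). It also took the higher and lower calls to 634 and 1376 (main 941 and 1090), 360 and 489 (main 605 and 346) and 283 and 1183 (main 456 and 709). Upper quartile scaling gave 472 and 491 for Glu, and 511 and 609 for the positive populations, where limma voom gave 403 and 243. Few counts limit Trpv1, Trpv4, Piezo2 and, in NeuroD1 positive libraries, Piezo1.

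Libraries share numbers between positive and negative groups. For libraries of the same number, deviations from the group means correlated by 0.042, 0.010 and 0.0080 in the NeuroD1 strain and 0.041 and 0.038 in the Glu strain. The check covers all genes tested, and with 2 Glu negative libraries the deviations of these mirror each other. It therefore cannot show whether the numbers are pairs. The main fit did not use them as pairs. In the NeuroD1 strain 1 of 3 positive libraries, NeuroD1_positive_6361, correlated best with another number. With the replicate block 914 genes were higher and 1042 lower in the NeuroD1 comparison and 512 and 195 in the Glu comparison, and for the difference of differences the calls went from 1 to 0 among channel genes and from 2 to 1 among related genes. The Cav1 call in the NeuroD1 comparison was lost with the block, at -3.08 with an adjusted p of 0.0864 in edgeR. The block could not be fitted between strains, whose numbers differ.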
